A study of Rattus norvegicus with 3 samples.

Results

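The annexin genes of the rat kidney inner medulla were compared between rats treated with lithium for 1 month and control rats. All probes with a single gene symbol beginning with Anxa were taken, which gave 6 genes with 1 probe each (Anxa1, Anxa2, Anxa3, Anxa4, Anxa5 and Anxa6) among 5064 probes with a single symbol and 5760 probes in all. The genes were chosen by symbol, but the family was taken up with ratios of this same contrast already known for Anxa1, Anxa3, Anxa4 and Anxa6. Its ratios are therefore given as a description, without a test. Each of 3 arrays set RNA of lithium-treated rats, labelled red, against RNA of control rats, labelled green. On arrays 1 and 2 a channel carried RNA of 2 rats, on array 3 of 1 rat, and each array had rats of its own. The title names the condition as nephrogenic diabetes insipidus induced by lithium. No strain, sex, age or lithium dose is given in the sources used here.

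Annexins are cytosolic proteins that bind acidic phospholipids of membranes when calcium rises. They share a conserved calcium-binding core and differ in their amino-terminal tails, which hold the sites for partners and kinases. They are known for roles in vesicle traffic, membrane repair and the links between membranes and actin, and several are abundant in kidney epithelium. Lithium-induced nephrogenic diabetes insipidus is a loss of the collecting duct's response to vasopressin, in which fewer water channels reach the apical membrane.

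Each probe has a deposited log ratio of unstated base, and folds are therefore shown for base 10 and base 2. Ratios were read as lithium over control because the labels put lithium RNA in channel 1, but the deposited table did not state the direction, and if it ran the other way each sign below would turn. The vasopressin-regulated water channel gene Aqp2, whose abundance lithium is known to lower, had a ratio of 0.17 ± 0.08 (SD, n = 3). It is an RNA ratio that the limma fit below did not call (adjusted p = 0.153), so the direction stays in doubt. Lithium was red on every array, so dye and treatment cannot be told apart. Each array was set to a median of 0 over its probes. Values were present for 5582, 5682 and 4287 probes on arrays 1, 2 and 3, and 3819 features (3395 named genes and unnamed probes) were measured on all 3. All 6 annexin probes had a value on every array. Spot intensities were not used here, so no level can be given for any annexin, and the labelled tissue could not be checked by marker levels. In RNA of a whole tissue zone, fewer cells of a type and less RNA per cell cannot be told apart.

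The promoters of the annexin genes with the lowest ratios (Anxa4 and Anxa3) and of one with a ratio above 0 (Anxa1) are shown because they are the sequences next to the start sites of the transcripts described here. They are taken from RefSeq on assembly GRCr8, run from 250 bases before the first transcribed base to 50 bases from it on, and are written 5′ to 3′ on the gene's own strand. Of the 6 genes, 5 were matched in the table and Anxa6 was not. Capitals mark matches on either strand to the GC box GGGCGG, the TATA box TATAAA, the AP-1 site TGAGTCA, the cAMP response element TGACGTCA and the glucocorticoid half-site AGAACA, none of which overlapped another here. All 3 genes lie on the minus strand, Anxa4 at chr4:120798464-120798763, Anxa3 at chr14:13085548-13085847 and Anxa1 at chr1:227303683-227303982.
Anxa4: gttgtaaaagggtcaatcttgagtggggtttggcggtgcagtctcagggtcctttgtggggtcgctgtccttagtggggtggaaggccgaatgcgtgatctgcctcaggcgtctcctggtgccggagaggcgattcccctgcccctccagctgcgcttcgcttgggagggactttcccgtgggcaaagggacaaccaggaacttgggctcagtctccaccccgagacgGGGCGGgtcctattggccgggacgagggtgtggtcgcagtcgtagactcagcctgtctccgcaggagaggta
Anxa3: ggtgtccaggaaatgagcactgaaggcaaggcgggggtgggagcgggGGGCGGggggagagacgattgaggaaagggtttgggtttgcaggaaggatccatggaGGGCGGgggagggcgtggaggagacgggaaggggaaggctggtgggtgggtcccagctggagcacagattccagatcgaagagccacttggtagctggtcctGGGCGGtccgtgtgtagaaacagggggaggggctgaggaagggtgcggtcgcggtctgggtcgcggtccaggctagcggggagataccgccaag
Anxa1: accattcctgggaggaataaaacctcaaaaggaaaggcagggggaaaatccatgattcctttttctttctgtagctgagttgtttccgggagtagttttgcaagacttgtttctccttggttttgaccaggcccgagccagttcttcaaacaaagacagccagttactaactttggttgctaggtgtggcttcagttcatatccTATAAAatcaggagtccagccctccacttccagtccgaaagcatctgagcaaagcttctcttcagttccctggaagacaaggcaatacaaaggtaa

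The Anxa4 window held 1 GC box and the Anxa3 window 3, and neither held a TATA box. The Anxa1 window held a TATA box and no GC box, and its GC content was 45.0%, against 62.3% for Anxa4 and 65.3% for Anxa3 and a median of 51.7% over all promoters of the table. The Anxa5 window held 1 GC box. That of Anxa2 held 2 GC boxes, a TATA box and an AP-1 site. Of all 33469 promoters of the same length, 33.1% held a GC box, 14.2% a TATA box, 4.63% the AP-1 site, 1.83% the cAMP response element and 20.7% the glucocorticoid half-site. A match is a description of these letters and not a shown binding site.

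The annexin genes did not move one way. The 6 mean ratios ran from −0.49 to 0.15, with 3 genes above and 3 below 0 and a median of −0.0034. The median over all 3819 features was 0.0133, with 2127 above 0 and 1631 below. Anxa4 stood far below the others. Anxa3 and Anxa5 lay below 0 on all arrays, and Anxa1 and Anxa6 above 0 on all arrays. Anxa2 lay on both sides of 0.

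Anxa4 encodes an annexin of secretory and absorptive epithelia that assembles on membranes in the presence of calcium. Its ratio was −0.66 on array 1, −0.40 on array 2 and −0.40 on array 3. All arrays were low, array 1 the lowest, and no other annexin came near these values on any array. The mean of −0.49 ± 0.15 (SD, n = 3) means 3.07-fold lower in lithium if the base is 10 and 1.40-fold lower if it is 2. On array 1 only 23 of 5582 probes read lower, and on array 3 only 7 of 4287. On array 2 the number was 322 of 5682, so the same ratio was less extreme there. Array 2 also had the longest low tail, with 9.73% of its probes more than 0.3 below the median against 3.46% on array 1 and 1.03% on array 3. By the mean over the 3 arrays, 6 of the 3819 features lay below Anxa4. The printing block of its probe is the patch of spots laid down together. The deposited medians of that block were −0.02, −0.04 and −0.03, close to the array medians of −0.02, −0.04 and 0.00. On array 3 only 87 of the 180 spots of the block had a value, against 4287 of 5760 over the whole array.

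Anxa3, an annexin abundant in neutrophils and also made by epithelia, had ratios of −0.11, −0.15 and −0.13 on arrays 1, 2 and 3. The 3 values lay within 0.04 of each other, and 942, 1169 and 482 probes of the respective array read lower. Its mean of −0.13 ± 0.02 (SD, n = 3) means 1.35-fold lower if the base is 10 and 1.09-fold lower if it is 2. Anxa5, which binds phosphatidylserine and is used as a probe of dying cells, had ratios of −0.04, −0.03 and −0.04. Its mean of −0.0367 ± 0.0058 means a ratio of 0.919 if the base is 10 and of 0.975 if it is 2. In size, 36.2% of features had a mean closer to 0. The size of Anxa5 depended on the centring, with −0.0567 (55.4% of features closer to 0) without centring and −0.065 (62.5%) when each printing block was set to its own median.

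Anxa2, which joins with the S100 protein S100a10 at the cell cortex, had ratios of 0.03, 0.07 and −0.01 on arrays 1, 2 and 3. Its sign differed between arrays, and its mean of 0.03 ± 0.04 (SD, n = 3) was smaller than its SD. Without centring the mean was 0.01.

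Anxa1, a protein that glucocorticoids induce and that restrains phospholipase A2 and leukocyte entry, had ratios of 0.13, 0.14 and 0.10. All 3 arrays were above 0, with a mean of 0.12 ± 0.02 (SD, n = 3), 1.33-fold higher if the base is 10 and 1.09-fold if it is 2. Anxa6, a larger annexin whose core is duplicated, had ratios of 0.15, 0.17 and 0.13. It was the highest annexin on every array, with a mean of 0.15 ± 0.02, 1.41-fold higher if the base is 10 and 1.11-fold if it is 2. Its deposited ratio was 0.13 on each array, before the array medians were subtracted. A single deposited value on all arrays was seen for 5 of the 4250 probes measured on all 3, and Anxa6 was the one of these with the highest ratio. By the mean, 97 features lay above Anxa6 and 209 above Anxa1.

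**Figure D1:**
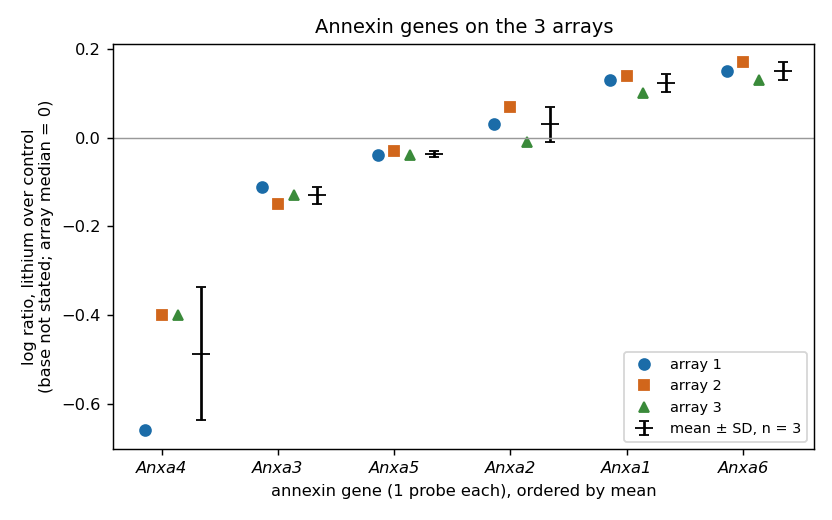
Log ratio of lithium over control (y axis, base not stated, each array's median at 0) of the 6 annexin genes (x axis, ordered by mean) on arrays 1, 2 and 3, with the mean and SD of the 3 arrays as a black bar. Anxa4 lies at −0.40 or below on each array, and the other 5 genes lie between −0.15 and 0.17.

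The order of the 6 genes was the same on each array, namely Anxa4, Anxa3, Anxa5, Anxa2, Anxa1 and Anxa6 from lowest to highest ratio. All 15 pairs of annexins kept their order on the 3 arrays, against 39.4% of the 7290471 pairs that all features form, and nothing is read from this since the genes were picked with their ratios known. A difference between probes of the same array does not depend on the array's median. Anxa3 exceeded Anxa4 by 0.55, 0.25 and 0.27 on arrays 1, 2 and 3, a mean of 0.36 ± 0.17 (SD, n = 3). The gap was widest on array 1, where Anxa4 was lowest. Anxa5 exceeded Anxa3 by 0.0933 ± 0.0252, and Anxa2 exceeded Anxa5 by 0.0667 ± 0.0351. Anxa1 exceeded Anxa2 by 0.0933 ± 0.0208. Anxa6 exceeded Anxa1 by 0.02, 0.03 and 0.03, a step of 0.0267 ± 0.0058, where the deposited values have 2 decimals. Each of these steps was larger than its SD over arrays. From end to end, Anxa6 exceeded Anxa4 by 0.81, 0.57 and 0.53, a mean of 0.64 ± 0.15, or 4.33-fold in base 10 and 1.55-fold in base 2. When each printing block was set to its own median, the order of the means stayed and the order on single arrays held on 2 of the 3.

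With each array centred on its median, the spread over arrays was below the median of all features for all members other than Anxa4. The SDs of the other 5 genes ran from 0.0058 for Anxa5 to 0.04 for Anxa2, while the median SD over all features was 0.0709. Of all features 0.367% had a smaller SD than Anxa5 and 5.05% a smaller one than Anxa3 or Anxa6. For Anxa4, 91.7% had a smaller SD. With printing blocks set to their own medians, the SDs of Anxa3, Anxa2, Anxa6 and Anxa5 rose to 0.0653, 0.0586, 0.0375 and 0.0229, while the median over all features was 0.0611. In that setting 53.6% of features had a smaller SD than Anxa3, 47.0% than Anxa2, 24.5% than Anxa6 and 9.69% than Anxa5.

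**Figure D2:**
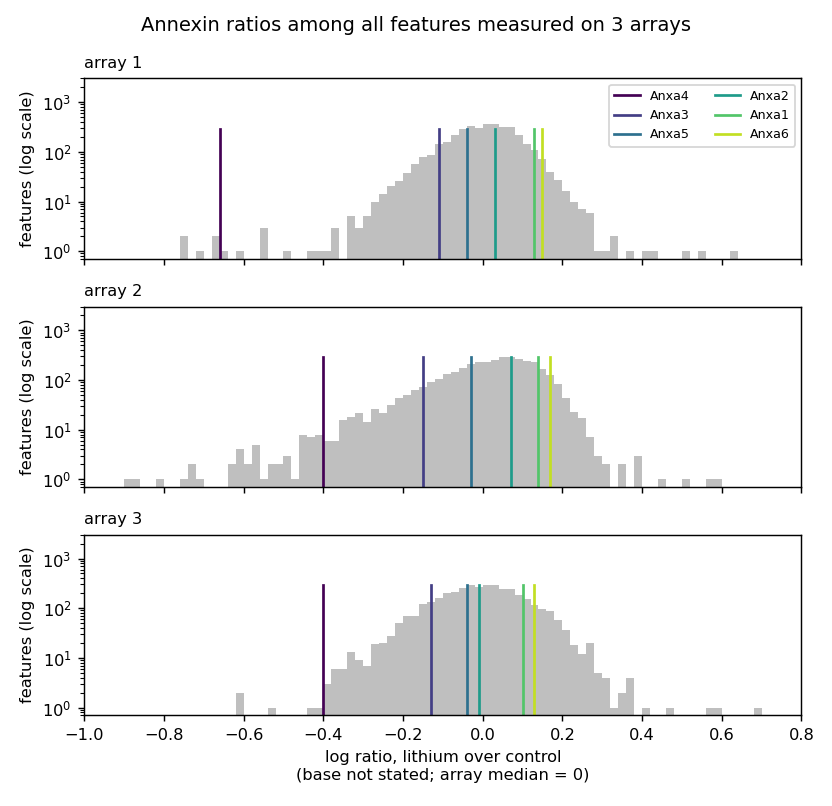
Number of features (y axis, log scale) by log ratio of lithium over control (x axis, base not stated, array median at 0) on each array, for the 3819 features measured on all 3, with a vertical line at each annexin gene. Anxa4 lies in the thin low tail of arrays 1 and 3 and inside the longer tail of array 2, while the other annexins lie in the bulk.

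A limma fit across all features, two-sided with Benjamini-Hochberg adjustment, called 17 of 3819 features at an adjusted p of 0.05, a share of 0.445%. It called 8 lower (0.209%) and 9 higher (0.236%). This balance moved with the setting, to 63 lower and 35 higher with arrays scaled to the same spread. It was 59 lower and 35 higher with a robust prior, and 36 lower and 4 higher with features measured on at least 2 arrays. Array weights moved it the other way, to 473 lower and 582 higher. Of the 6 annexins, the fit in the reported setting called 1, Anxa4, as lower, and 0 as higher. With features measured on at least 2 arrays, 0 of the 6 and 40 of all 4930 features were called, and Anxa4 had a limma adjusted p of 0.0519. With any 1 array left out, 0 of the 6 and 0 of all features were called. With array weights 4 of the 6 were, Anxa4 and Anxa3 as lower and Anxa1 and Anxa6 as higher. The weights were 4.52 for array 1, 0.371 for array 2 and 0.596 for array 3, and this setting called 1055 of all 3819 features. The same sign on all 3 arrays was found for 5 of the 6 annexins and for 38.7% of all features. No support is drawn from these counts because the family was taken up with this contrast in view.

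Likeness to each annexin was measured as the Euclidean distance over the 3 array ratios. The 3 named genes nearest to Anxa4 were the collagen gene Col10a1 at a distance of 0.13, the protease inhibitor gene Serpina3l at 0.216 and the Kazal-type inhibitor gene Spink1l at 0.249. Col10a1 had ratios of −0.61, −0.40 and −0.52, and was the only named gene within 0.15 of Anxa4. Within the same distance, 320 named genes lay around Anxa3 and 1701 around Anxa2. Nearest to Anxa3 were Prmt3, an arginine methyltransferase gene, at 0.01, the kinase gene Pnck at 0.0287 and the lactate transporter gene Slc16a1 at 0.0332. Nearest to Anxa5 were Map1a, Parm1 and Cr1l, and nearest to Anxa2 were Clcn3, Plpp1 and Aldh7a1, all within 0.02. The genes nearest to Anxa1 were Gusb, Pik3r3 and the inositol trisphosphate receptor gene Itpr1, at 0.0141, 0.0141 and 0.0206. Those nearest to Anxa6 were the complement gene C7 at 0.0141, Ybx1 at 0.0224 and the elongation factor gene Eef1a1 at 0.0245. Anxa1 and Anxa6 lay 0.0469 apart, nearer than any other pair of annexins, and Anxa4 lay 0.662 from Anxa3.

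The S100 proteins, small calcium-binding proteins of which several dock onto annexin tails, had mean ratios below 0 in 7 of 7 measured genes. Of all 3819 features, 1631 lay below 0 and 2127 above. The S100 median was −0.0733 beside 0.0133 for all features, and none was called by the limma fit. With printing blocks set to their own medians 6 of 7 lay below 0. Without array 3, where 9 had a value, 7 of 9 did, and with features measured on at least 2 arrays 9 of 9 did. S100a10, the partner of Anxa2, had ratios of −0.05, −0.06 and −0.11, a mean of −0.0733 ± 0.0321 (SD, n = 3, limma adjusted p = 0.383). All 3 arrays were below 0. S100a6, calcyclin, had ratios of −0.17, −0.22 and −0.01, a mean of −0.13 ± 0.11 (limma adjusted p = 0.249). S100a4, which binds myosin and other cytoskeletal proteins, had the lowest mean of the 7, with ratios of −0.33, −0.28 and −0.10 (limma adjusted p = 0.126). It was called lower once all arrays had been given an equal spread (limma adjusted p = 0.0422). A robust prior (0.0311) and array weights (0.00161) also gave this call, and the other settings did not. For S100a6 and S100a4 array 3 lay nearest to 0. S100b stood at −0.11 ± 0.06 (adjusted p = 0.257). S100a9 and S100g had no value on array 3, and read −0.07 and −0.35, and −0.05 and −0.26, on arrays 1 and 2.

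Phospholipase A2 and eicosanoid enzymes, whose supply of arachidonate Anxa1 is known to restrain, lay on both sides of 0. Of 11 measured genes 4 stood above 0 and 7 below, the median was −0.0333 and 0 were called. With features measured on at least 2 arrays, 4 of 15 stood above 0 and 11 below. Their median was then −0.0667, beside −0.005 for all features. Pla2g4a, the cytosolic phospholipase A2, had ratios of −0.07, −0.14 and −0.19 (limma adjusted p = 0.188). Its 3 values were all below 0, while those of Anxa1 were all above. Neither gene was called in the reported setting, and 38.7% of all features kept the same sign on all 3 arrays. A link between Pla2g4a and Anxa1 was not tested. The cyclooxygenase gene Ptgs2 stood at −0.15 ± 0.11 (SD, n = 3, adjusted p = 0.194), and the prostaglandin E synthase gene Ptges at 0.12 ± 0.05 (adjusted p = 0.215).

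Genes of the glucocorticoid response, which governs Anxa1, had a median of 0.00333 over 11 measured genes, with 6 above 0, 4 below and 1 at 0. Of these, 1 was called, and it rose: Hsd11b2, which inactivates glucocorticoid, with ratios of 0.52, 0.57 and 0.37 (limma adjusted p = 0.0234). That call was lost with any 1 array left out (adjusted p = 0.743, 0.297 and 0.228 without array 1, 2 and 3). In those settings 0 of all features were called, so the loss is not particular to Hsd11b2. Hsd11b1, which regenerates the hormone, stood at −0.15 ± 0.02 (SD, n = 3, adjusted p = 0.15), the receptor gene Nr3c1 at 0.05 ± 0.07 (adjusted p = 0.564), and the hormone-induced gene Tsc22d3 at −0.0067 ± 0.1102 (adjusted p = 0.957). Cebpb, a transcription factor gene, stood at −0.10 ± 0.13 (adjusted p = 0.397).

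Lists of other proteins, many of which bind calcium or join membranes to actin, lay on both sides of 0. C2-domain proteins were listed because many of them, like annexins, bind phospholipids with calcium. Of their 29 measured genes, 14 stood above 0 and 15 below, the median was −0.00667 and 0 were called. The priming factor gene Unc13d read 0.15 on each array (limma adjusted p = 0.144), and the phospholipase C gene Plcd4 read 0.11, 0.17 and 0.17 (adjusted p = 0.153). The synaptotagmin gene Syt3 stood at −0.14 ± 0.08 (SD, n = 3, adjusted p = 0.183). Of 19 genes of EF-hand and store calcium-binding proteins, 8 stood above 0 and 11 below, the median was −0.0167 and 0 were called. The chaperone gene Canx stood at −0.15 ± 0.06 (adjusted p = 0.169), the parvalbumin gene Pvalb at −0.13 ± 0.08 (adjusted p = 0.219), and the calmodulin gene Calm3 at −0.17 ± 0.16 (adjusted p = 0.239). The 18 genes of actin-membrane linkers and spectrin split evenly, 9 above 0 and 9 below, and 0 were called at a median of −0.00333. The adducin gene Add2, with several probes, was lowest at −0.28 ± 0.06 (limma adjusted p = 0.0560). It was called lower without centring (limma adjusted p = 0.0385), when centred on shared features (0.0432) and block by block (0.0380). The same held with scaled arrays (0.0157), array weights (0.000701) and a robust prior (0.00781). Its single probe of smallest p-value stood at −0.2433 and was not called (limma adjusted p = 0.125). The actinin gene Actn4 stood at 0.16 ± 0.03 (limma adjusted p = 0.136), and the hyaluronan receptor gene Cd44 at −0.23 ± 0.18 (limma adjusted p = 0.176). With features measured on at least 2 arrays, 16 C2-domain genes stood above 0 and 23 below. For EF-hand and store genes the counts were 8 and 13, and for the linkers 9 and 12. Medians were then −0.0133, −0.0467 and −0.0133, beside −0.005 for all features.

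**Figure D3:**
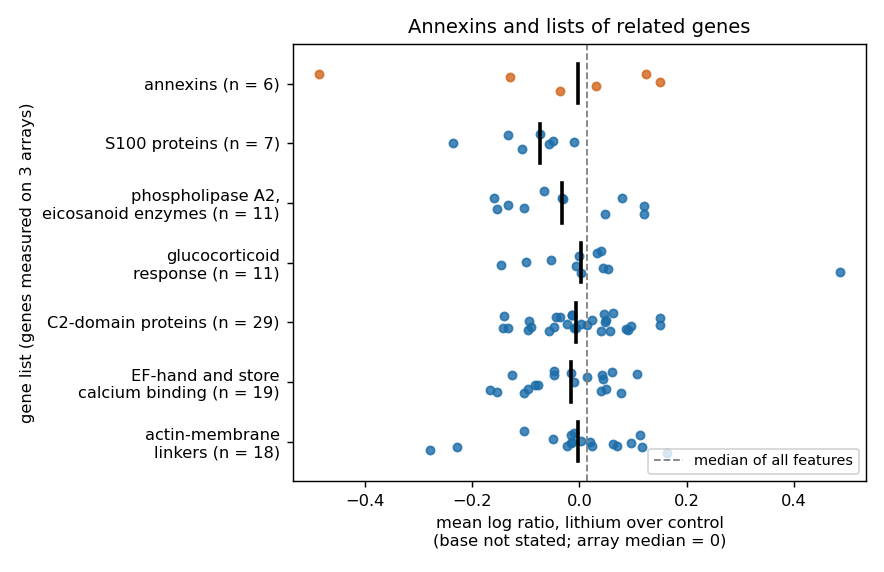
Mean log ratio of lithium over control over the 3 arrays (x axis, base not stated) of each measured gene of the annexins and of 6 lists of related genes (y axis), with a black bar at each list's median and a dashed line at the median of all features, 0.0133. Anxa4 is the lowest of the plotted genes at −0.49 and Hsd11b2 the highest at 0.49, and the 7 S100 genes lie below 0 in this setting (6 of 7 with blocks centred).

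Markers of kidney cell types, not all of them types of this zone, are given beside the annexins. Their part in the annexin ratios was not tested. Of 9 measured markers of the collecting duct principal cell, 9 lay above 0, from 0.0067 to 0.49, with a median of 0.13. Of all 3819 features, 2127 lay above 0. The marker count was 8 of 9 without centring, when centred on the features measured on all 3 arrays, with array weights and without array 2. Of 4 markers of the thin and thick limbs, 3 stood below 0 and 1 above, and the median was −0.143. The limb marker above 0, at 0.0983, was also counted among the principal cell markers. The limb marker Aqp1, a water channel gene, had ratios of −0.19, −0.11 and −0.26 (limma adjusted p = 0.136). Medians were 0.02 over 3 intercalated cell markers, 0.0217 over 4 endothelial markers, 0.0133 over 10 interstitial and fibroblast markers and 0.005 over 9 leukocyte markers. Of the leukocyte markers 5 lay above 0, 3 below and 1 at 0, and the range was −0.39 for the integrin gene Itgam to 0.16 for Cd4. Hsd11b2, also counted among the glucocorticoid genes, was the only marker called.

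**Figure D4:**
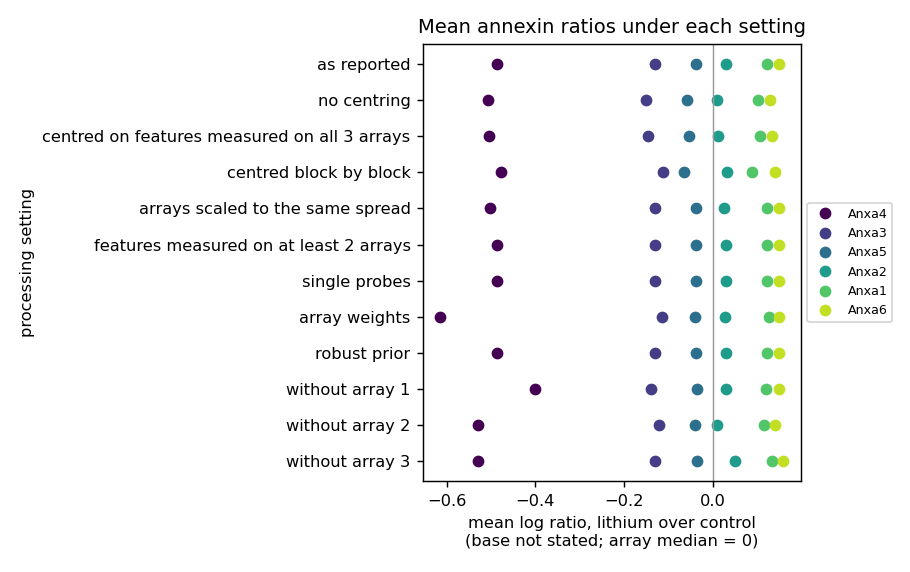
Mean log ratio of lithium over control (x axis, base not stated) of the 6 annexin genes under the reported setting and 11 others (y axis), 1 point per gene. The order of the genes is the same in each row, Anxa4 moves between −0.61 and −0.40, Anxa5 between −0.065 and −0.035, and Anxa2 between 0.01 and 0.05.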

How the data were processed

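The authors deposited 1 table of log ratios with 2 decimals for 5760 probes on 3 dual-colour arrays. How the authors scanned, corrected, normalized and filtered them is not given in the sources used here, and the log base, any centring and the direction stay unknown. The deposited column medians were −0.02, −0.04 and 0.00. Probes were named from the platform's public annotation, which can be old: 5064 had 1 symbol, 9 several and 687 were not listed. A RefSeq table of GRCr8 held the gene IDs of 5043 probes, and all 6 annexin symbols were current.

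Each array was centred on its median, and probes of 1 gene ID were averaged. The 3819 features measured on all arrays were fitted with limma 3.58.1 in R 4.3.3 (lmFit with an intercept, eBayes, Benjamini-Hochberg, two-sided, threshold 0.05). The fit was tested on simulated data, with normal noise whose spread was drawn from the fit itself. That cannot show how the fit behaves where the real arrays depart from this. The spread between arrays includes that between rats or pools, and the number of arrays limits the precision. The members and gene lists were chosen with earlier results of these data known. Text names all annexins, the 3 nearest genes of each, per list any called gene and the 3 of smallest p-value, and listed partner genes. Of the cell type lists, only extremes, Aqp1 and Aqp2 are named, chosen after the values were seen. Promoters came from RefSeq (GRCr8). The 11 alternatives are other centring, scaling, filters, weights, priors, single probes and each array left out. Figures and promoters used matplotlib 3.10.9, numpy 2.4.6 and pandas 2.3.3 in Python 3.11.15.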

Additional observations from a re-analysis of the deposited data

How the results depend on the processing

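Under the 11 alternatives each annexin other than Anxa5 and Anxa1 moved by no more than its SD over arrays, and none changed sign. Anxa5 moved to −0.0567 without centring, −0.0533 when centred on features measured on all arrays, and −0.065 when centred block by block, where Anxa1 moved to 0.09. Of the 6 annexins, 0 were called with features on at least 2 arrays, 4 with array weights, and from 0 to 0 with any 1 array left out. Over all features the calls numbered 98 with arrays scaled to the same spread, 40 with features on at least 2 arrays, 11 with single probes, 1055 with array weights, 94 with a robust prior, and 0 with any 1 array left out, where an unadjusted p under 0.05 was seen for 174, 606 and 734 features with array 1, 2 and 3 left out. In the lists of related genes, where 1 gene was called, the calls were 2 without centring, 2 when centred on shared features, 2 block by block, 3 with scaled arrays, 26 with array weights, 3 with a robust prior, and 0 with any 1 array left out. These lists held 7, 11, 11, 29, 19 and 18 measured genes, with Pla2g4a listed more than once. Over all 3819 features the calls were 17 as reported, 18 without centring, 15 when centred on shared features and 20 block by block. Array weights called 1055 of the 3819 features, so nothing is read from the 26 about these lists. Leaving out an array removes 1 of 2 residual degrees of freedom; the cause of the other changes was not tested. Over the other 43 genes named, 425 values kept direction and side of the threshold, 33 passed it newly, 12 no longer passed and 3 changed sign without a call; with single probes, the probe of smallest p-value stood for its gene. Each array set lithium RNA directly against control RNA, so the ratios that were fitted already hold this pairing. Without intensities, signal over background is unknown.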
